A study of Mus musculus with 16 samples.

Results

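The 9 genes described here are regulators of epithelial identity: the grainyhead-like transcription factors Grhl1, Grhl2 and Grhl3, the zinc-finger repressors Ovol1 and Ovol2, the splicing regulators Esrp1 and Esrp2, and the epithelium-specific ETS transcription factors Elf3 and Ehf. They were taken by gene symbol, as a set proposed with earlier results of these data known, and all 9 were found among the 24421 genes of the tumour organoid tables and among the 51912 entries of the table of normal organoids. All 9 also passed the filter on low counts in each of the fits.

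Polyadenylated RNA was sequenced from 16 libraries of C57BL/6 mouse organoids, which are 3-dimensional cultures, in 6 groups. The Lung-LMP1 (n = 3) and LMP1 (n = 2) libraries are tumour organoids of the TMPL genotype (Trp53-/-, Myc, sgCdkn2a and LMP1, the viral oncoprotein of Epstein-Barr virus that signals from the membrane). The Lung-Ctr (n = 2) and Ctr (n = 3) libraries are tumour organoids of the TMP genotype, which carries Trp53-/-, Myc and sgCdkn2a without LMP1, so loss of Trp53, Myc and the Cdkn2a guide are shared by all 10 tumour libraries. Normal_nasopha (n = 3) and Normal_lung (n = 3) are untreated organoids of nasopharynx and lung. Per the labels, tumours grew in recipient mice after transplantation into the nasopharynx, and organoids were established from primary or metastasized tumours. In the descriptions all TMP libraries are primary and all TMPL libraries metastases, whereas the design text lists both kinds of tumour for either genotype, so the Lung prefix is used as a name and not as a site. Ages, the number of clones and the promoters of Myc and LMP1 are not stated in the labels, nor is the origin of the replicates, and the p-values therefore describe spread among libraries that may be technical.

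Grainyhead-like proteins bind enhancers and promoters of genes for cell junctions and keep epithelial chromatin accessible, and GRHL2 and the repressor ZEB1 inhibit each other's expression. OVOL proteins repress Zeb1 and other genes of the mesenchymal state, and ESRP proteins direct the epithelial choice of exons in transcripts such as Fgfr2 and Cd44. ELF3 and EHF are ETS factors largely restricted to epithelia, including the stratified and glandular linings of the airways.

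Total counts ran from 12535166 to 21737184 per library, so 3 counts in a library correspond to 0.138 to 0.2393 CPM (read counts scaled to the library total). Myc was at 457 to 2005 CPM in tumour libraries against 6.65 to 93.6 CPM in the Normal_nasopha and Normal_lung libraries. Trp53 counts were present in the tumour libraries (58.1 to 109 CPM) as in Normal_nasopha (55.2 to 136 CPM), and Cdkn2a was at 122 to 381 CPM in tumour libraries against 3.97 to 8.54 CPM in normal ones. The Trp53 and Cdkn2a counts do not check the genotypes, because the altered parts of the genes are not given, and no entry for the viral LMP1 gene was found. In the table that the authors named for Ctr and normal nasopharynx, the 3 control columns are headed normal lung. Each of these columns lay closest to the Normal_nasopha library of the same number (median absolute log2 ratio 0.1166, 0.1468 and 0.1294). The columns lay at 0.5112 to 0.5944 from the Normal_nasopha libraries of other numbers and at 0.6172 to 0.793 from the Normal_lung libraries. They are called the normal comparator below, and they and the Normal_nasopha libraries cannot be treated as independent sets.

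Ctr replicate 2 stood apart from the other Ctr libraries. The summed level of 8 fibroblast markers was 83.4 and 40.8 CPM in LMP1, and 109.8 CPM in Ctr replicate 2 against 1.17 and 0.557 CPM in Ctr replicates 1 and 3. It was at most 1.52 CPM in the Lung-LMP1 and Lung-Ctr libraries, where Col1a2 and Lum were at 0 counts. All 7 epithelial markers were present in every library, and their sum was 904 and 1366 CPM in LMP1 against 2698 to 5840 CPM in the other tumour libraries. In such bulk libraries fewer cells of a type and less RNA per cell cannot be told apart.

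On GRCm38 with GENCODE vM21 annotation, the 9 genes are spread over 7 chromosomes. Grhl1 spans chr12:24572283-24617391 (plus strand), Grhl2 chr15:37233036-37363569 (plus strand) and Grhl3 chr4:135541888-135573630 (minus strand). Ovol1 lies at chr19:5549136-5560646, Ovol2 at chr2:144305175-144332146 and Ehf, on the same chromosome, at chr2:103263433-103303278, all on the minus strand. Esrp1 (chr4:11331933-11386783), Esrp2 (chr8:106130319-106136974) and Elf3 (chr1:135253575-135258568) are also on the minus strand.

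Promoter sequences show where the listed start sites of these regulators lie and which short motifs they hold. RefSeq windows on GRCm38.p6, from 250 bases before to 50 bases after the start, were on hand for 4 of the 9 genes, Grhl1 (with 2 starts), Grhl3, Ovol2 and Elf3. Grhl3 and Ovol2 are printed because they were among the members most reduced in LMP1 organoids, and Elf3 because it was not called there. Capitals mark CACCTG, the E-box bound by ZEB and SNAI repressors (searched on both strands as CACCTG or CAGGTG).
Grhl3 (chr4:135573583-135573882, minus strand): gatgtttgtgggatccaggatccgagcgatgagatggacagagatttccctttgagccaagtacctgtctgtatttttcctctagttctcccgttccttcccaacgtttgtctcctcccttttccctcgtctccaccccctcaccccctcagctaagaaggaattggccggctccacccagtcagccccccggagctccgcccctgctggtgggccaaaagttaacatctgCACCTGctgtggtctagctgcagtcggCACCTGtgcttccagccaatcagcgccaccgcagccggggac
Ovol2 (chr2:144331313-144331612, minus strand): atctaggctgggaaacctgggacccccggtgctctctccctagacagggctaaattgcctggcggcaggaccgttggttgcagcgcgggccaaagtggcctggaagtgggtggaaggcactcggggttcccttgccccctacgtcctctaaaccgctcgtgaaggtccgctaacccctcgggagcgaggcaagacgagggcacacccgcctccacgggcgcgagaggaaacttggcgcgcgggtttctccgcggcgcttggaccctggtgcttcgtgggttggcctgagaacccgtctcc
Elf3 (chr1:135258423-135258722, minus strand): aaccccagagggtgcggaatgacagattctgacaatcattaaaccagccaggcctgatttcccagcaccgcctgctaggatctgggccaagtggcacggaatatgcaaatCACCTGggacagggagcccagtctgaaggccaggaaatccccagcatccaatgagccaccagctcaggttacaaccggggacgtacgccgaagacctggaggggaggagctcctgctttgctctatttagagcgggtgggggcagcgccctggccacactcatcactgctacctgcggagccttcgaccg
The Grhl3 window held 2 such E-boxes, 19 bases before and 8 bases after the start, and the Elf3 window held 1, at 140 bases before the start. Neither Ovol2 nor the 2 Grhl1 windows held one. Of all 32851 promoter windows of this length, 20.2% held at least 1 E-box and 2.88% held 2 or more. The GRHL core AACNGGTT (or AACCNGTT), the OVOL core CCGTTA (or TAACGG) and the ETS site CCGGAAGT (or ACTTCCGG) occurred in 2.09%, 2.76% and 3.89% of all windows and in none of the 5 member windows. None of the matches overlapped, and a match is a stretch of letters and no measure of binding.

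All 9 regulators had lower fitted levels in LMP1 than in Ctr organoids, and 6 of them fell past the threshold: Grhl2, Grhl3, Ovol1, Ovol2, Esrp1 and Esrp2. Across all 13460 genes tested, 9.06% were called lower in this comparison (edgeR quasi-likelihood test, adjusted p under 0.05). The median log2 fold change was -1.99 over the 9 genes and -0.01 over all genes. The ranges of the groups did not overlap for 7 of the 9. The share of all genes without overlap was not counted, so such numbers are descriptive only, here and in the comparisons below.

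Grhl2, which activates E-cadherin and claudin genes, stood at 7.2 and 11.4 CPM in LMP1 against 119, 62.9 and 108 CPM in Ctr. Both LMP1 libraries lay far below the lowest Ctr library, and the log2 fold change was -3.40 ± 0.35 (SE; adjusted p = 0.00286, edgeR). Grhl3, the family member of epidermal barrier formation, was at 1.11 and 1.22 CPM in LMP1 against 12.6, 9.65 and 15.1 CPM in Ctr, again without overlap. It fell by 3.44 ± 0.38 on the log2 scale (adjusted p = 0.00326, edgeR). Grhl1, which regulates desmosomal cadherins, was at 9.74 and 18.1 CPM in LMP1 and 21.3, 29.6 and 16.6 CPM in Ctr. These ranges overlapped and the difference was not called (log2 fold change -0.71, 95% interval -1.73 to 0.31, adjusted p = 0.303, edgeR).

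Ovol2 was nearly undetected in LMP1 organoids. Its counts there were 2 and 7, or 0.111 and 0.474 CPM (95% Poisson intervals 0.0134 to 0.4 and 0.19 to 0.976 CPM, counting error only), against 9.55, 1.51 and 7.03 CPM in Ctr. The groups did not overlap, and Ctr replicate 2 was the lowest Ctr library, 6.31 times below the highest. Ovol2 fell by 4.39 ± 0.92 on the log2 scale (adjusted p = 0.0172, edgeR). Ovol1, which in skin limits progenitor growth during differentiation, was at 2.88 and 6.02 CPM in LMP1 against 20, 11.5 and 20.7 CPM in Ctr. It fell by 1.99 ± 0.45 on the log2 scale (adjusted p = 0.0215, edgeR), and Ctr replicate 2 was again the lowest of its group.

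Esrp1 stood at 55.5 and 95.6 CPM in LMP1 against 524, 284 and 399 CPM in Ctr, so the lowest Ctr library was above both LMP1 libraries. It fell by 2.43 ± 0.32 on the log2 scale (adjusted p = 0.00467, edgeR). Its paralog Esrp2 was at 7.75 and 14.3 CPM in LMP1 against 28.9, 30 and 46.9 CPM in Ctr, and fell by 1.71 ± 0.41 (adjusted p = 0.0266, edgeR). The annotated Esrp2 gene overlaps Nfatc3 and 1810019D21Rik on the opposite strand. The labels do not say that counting used strand, so reads of the overlapping stretches cannot be told apart, and opposite-strand noncoding or pseudogene entries overlap Grhl2, Ovol1, Ovol2, Esrp1 and Elf3 as well. The entry Gm26642 (chr1:135248561-135266443) covers the whole of Elf3.

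Neither ETS member was called. Elf3 was at 47 and 51.7 CPM in LMP1 against 294, 143 and 63.4 CPM in Ctr, which did not overlap but spread 4.64-fold within Ctr (log2 fold change -1.77, 95% interval -3.09 to -0.46, adjusted p = 0.0674, edgeR). In the authors' deposited table Elf3 passed the same threshold (adjusted p = 0.00959). Ehf was at 110.0 and 103 CPM in LMP1 and 271, 122 and 105 CPM in Ctr, with overlapping ranges (log2 fold change -0.66, 95% interval -1.47 to 0.15, adjusted p = 0.228, edgeR). Per kb of longest transcript, Ehf and Elf3 had the highest mean levels in LMP1 organoids (23.8 and 23.6 CPM per kb), with ranges overlapping that of Esrp1 (19.5 CPM per kb). In Ctr the mean level of Esrp1 was highest (104 CPM per kb), and its range overlapped that of Elf3 (79.7 CPM per kb).

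These calls rest on 2 LMP1 libraries, so that leaving out either leaves a lone library that is assumed to vary like the other groups. Without LMP1 replicate 1 none of the 9 genes was called by edgeR (25 of all genes were called and 2636 had an unadjusted p under 0.05), and without LMP1 replicate 2 only Grhl2, Grhl3 and Esrp1 were. Without Ctr replicate 2, which holds the fibroblast markers, 6 were called, and without Ctr replicate 3 Esrp2 was not called while Elf3 was. Ovol2 was not called when only the LMP1 and Ctr libraries were fitted. Beside these falls the summed level of the 7 epithelial markers was lower in LMP1 as well, as given above, and that of 20 mesenchymal genes was 2647 and 2211 CPM in LMP1 against 29.9, 693 and 85.8 CPM in Ctr, and their part in the result was not tested.

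**Figure D1:**
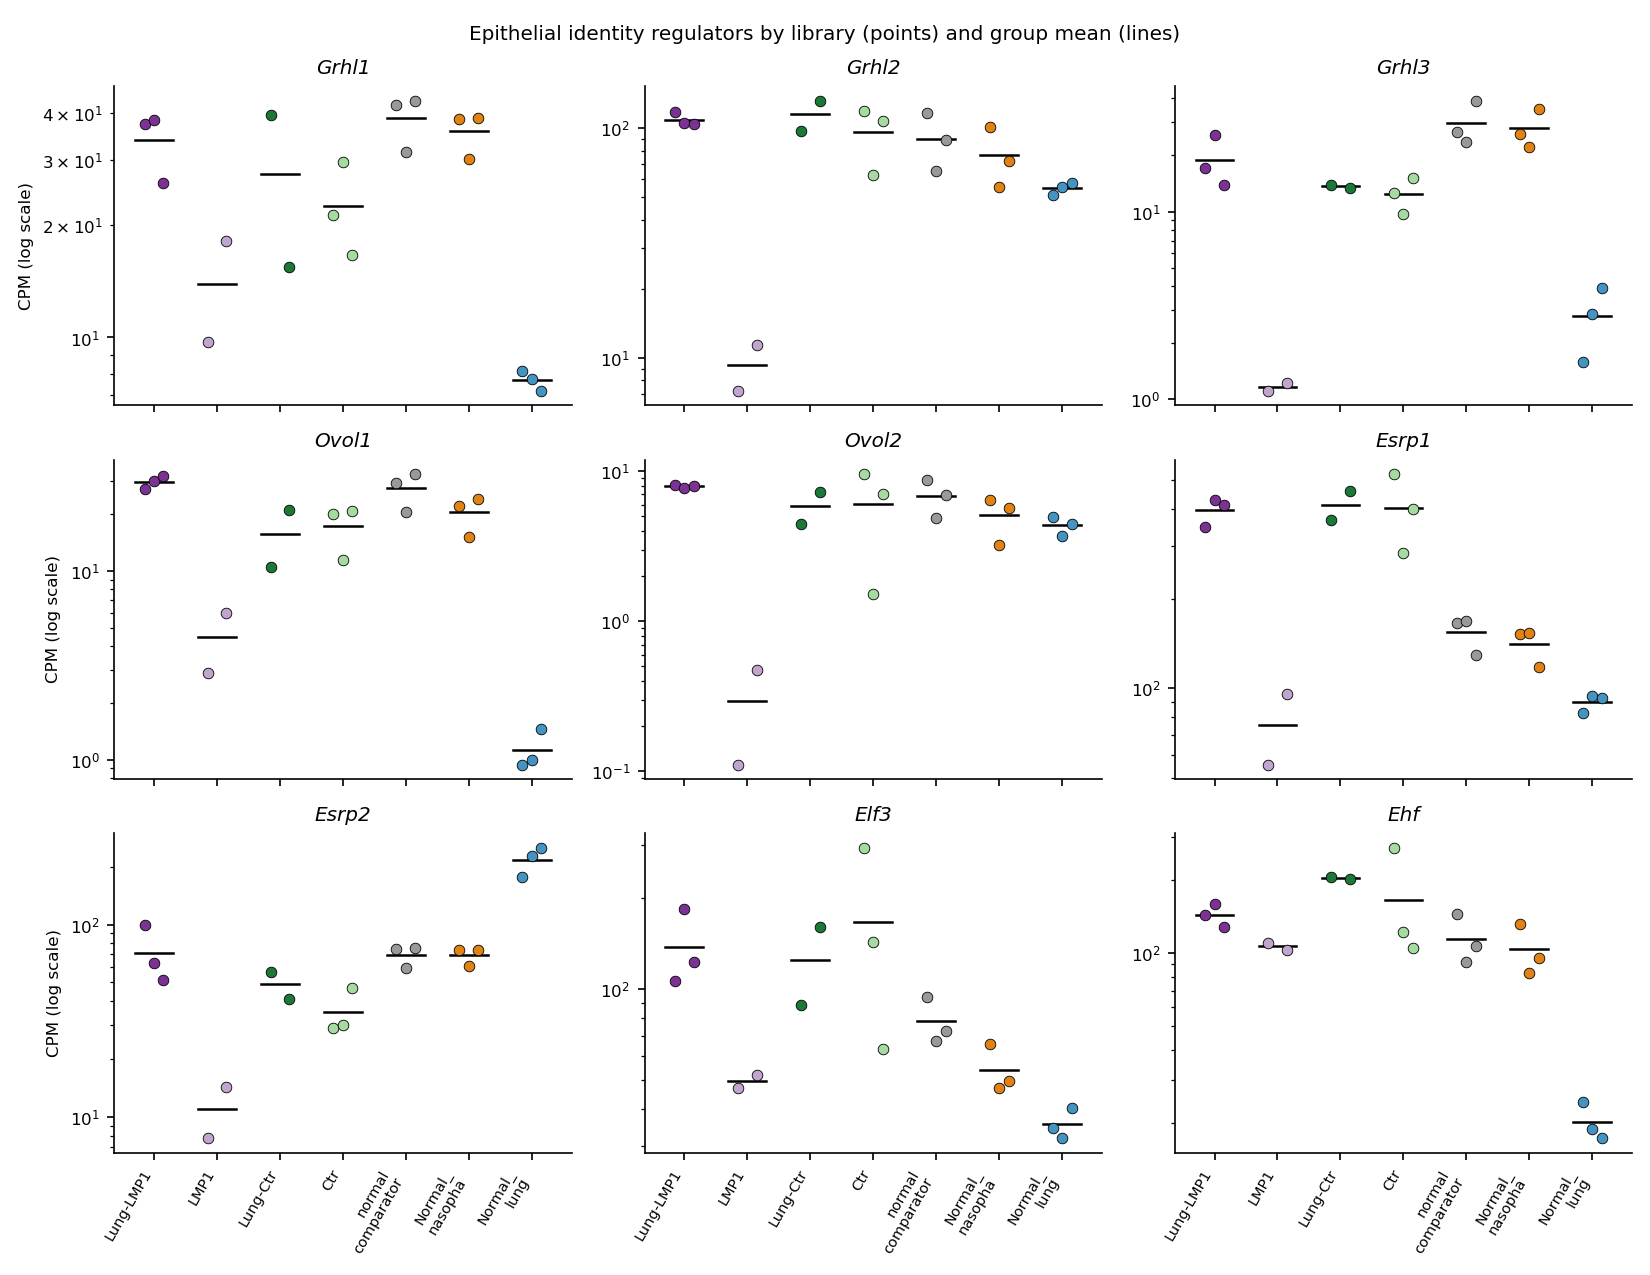
Level of each of the 9 regulators in every library, as CPM on a logarithmic axis, with each point a library and each line a group mean. The 2 LMP1 libraries lie below all other tumour libraries except for Grhl1 and Ehf, where they overlap Lung-Ctr or Ctr libraries, and Normal_lung is lowest of all for Grhl1, Ovol1, Elf3 and Ehf.

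In Lung-LMP1 organoids, which have the same genotype as LMP1, all 9 regulators stood above their LMP1 levels. The same 6 genes rose against LMP1, where 6.17% of all genes tested were called higher and 3.95% lower. The ranges of the groups did not overlap for any of the 9, and the share of all genes without overlap was not counted. This comparison uses the same 2 LMP1 libraries as the previous one, so the counts of calls in both are not independent. The median log2 fold change was 2.84 over the 9 genes and 0.01 over all genes. The split of 830 genes higher and 531 lower became 661 and 739 when libraries were scaled by total count, a scaling under which all 6 regulators were still called.

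Grhl2 was at 118, 105 and 104 CPM in Lung-LMP1 against the 7.2 and 11.4 CPM of LMP1, and rose 12.9-fold (log2 fold change 3.68 ± 0.36, adjusted p = 0.00208, edgeR). Grhl3 was at 17.1, 25.6 and 13.8 CPM in Lung-LMP1 against 1.11 and 1.22 CPM in LMP1, and rose 17.7-fold (4.15 ± 0.40, adjusted p = 0.00198, edgeR). Each Lung-LMP1 library of both genes stood more than 9 times above the highest LMP1 library. Ovol1 was at 27.3, 30.1 and 32 CPM in Lung-LMP1 against 2.88 and 6.02 CPM in LMP1 (log2 fold change 2.87 ± 0.47, adjusted p = 0.00957, edgeR). Ovol2 was at 8.13, 7.71 and 7.98 CPM in Lung-LMP1 against 0.111 and 0.474 CPM in LMP1 (4.89 ± 0.94, adjusted p = 0.0159, edgeR). The 3 Lung-LMP1 libraries differed by only 1.05-fold for Ovol2 and 1.17-fold for Ovol1.

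Esrp1 was at 349, 429.6 and 412 CPM in Lung-LMP1 against 55.5 and 95.6 CPM in LMP1, a rise of 2.52 ± 0.32 on the log2 scale (adjusted p = 0.00483, edgeR). Esrp2 was at 99.5, 63.3 and 51.7 CPM in Lung-LMP1 against 7.75 and 14.3 CPM in LMP1, and rose by 2.84 ± 0.43 (adjusted p = 0.00811, edgeR). The lowest Lung-LMP1 library of either splicing regulator exceeded the highest LMP1 library. Grhl1 (37.4, 38.4 and 25.9 CPM in Lung-LMP1), Elf3 (106, 184 and 123 CPM) and Ehf (144, 159 and 128 CPM) were above LMP1 in each library without being called. Their log2 fold changes were 1.42 for Grhl1 (95% interval 0.37 to 2.47), 1.61 for Elf3 (0.31 to 2.92) and 0.57 for Ehf (-0.24 to 1.37), with adjusted p of 0.0872, 0.11 and 0.346 by edgeR. All 9 were called when only these 5 libraries were fitted, and in the authors' deposited table for this comparison the largest adjusted p of the 9 was 0.00738, for Ehf. Without LMP1 replicate 1 only Grhl2 and Grhl3 were called, and without LMP1 replicate 2 all of the 6 except Ovol2.

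Whether the difference between TMPL and TMP organoids varies with the Lung prefix was put to the interaction. The interaction is the log2 fold change of Lung-LMP1 over Lung-Ctr minus that of LMP1 over Ctr. It was positive for all 9 regulators and passed the threshold for Grhl3 (3.96 ± 0.50, adjusted p = 0.0218), Grhl2 (3.38 ± 0.46, adjusted p = 0.0239) and Esrp1 (2.43 ± 0.43, adjusted p = 0.0446) by edgeR, against 0.810% of all genes called in that direction and 0.0817% in the other. For Ovol2 it was 4.88 ± 1.16, for Ovol1 2.96 ± 0.61 and for Esrp2 2.32 ± 0.56, with adjusted p of 0.0969, 0.0689 and 0.102 by edgeR. The remaining values were 1.97 for Elf3 (95% interval 0.18 to 3.77), 1.07 for Grhl1 (-0.37 to 2.50) and 0.21 for Ehf (-0.92 to 1.33). None of the 3 interaction calls held without LMP1 replicate 1, LMP1 replicate 2, Lung-Ctr replicate 1 or Lung-LMP1 replicate 1. Grhl2 was also not called without Lung-LMP1 replicate 2 or 3, and Esrp1 was called only with all libraries or without Ctr replicate 2, and not after the length and GC correction.

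Between LMP1 and control tumours with the Lung prefix no regulator was called. Lung-Ctr libraries 1 and 2 held 97.5 and 132 CPM of Grhl2, 13.9 and 13.4 CPM of Grhl3 and 368 and 459 CPM of Esrp1, and the Lung-LMP1 ranges of all 3 genes overlapped them. The log2 fold change of Lung-LMP1 over Lung-Ctr was -0.02 for Grhl2 (95% interval -0.70 to 0.66), 0.52 for Grhl3 (-0.21 to 1.26) and -0.01 for Esrp1 (-0.67 to 0.66). The widest difference was in Ovol1, at 27.3, 30.1 and 32 CPM in Lung-LMP1 against 10.5 and 21 CPM in Lung-Ctr (0.97, 95% interval 0.01 to 1.93, adjusted p = 0.287, edgeR). The ranges did not overlap for Ovol1, Ovol2 (7.71 to 8.13 CPM in Lung-LMP1, 4.46 and 7.24 CPM in Lung-Ctr) and Ehf (128 to 159 CPM in Lung-LMP1, 206 and 202 CPM in Lung-Ctr). No gene at all was called by edgeR in this comparison, a share of 0%, although 2295 had an unadjusted p under 0.05 and DESeq2 called 791, none of them among the 9.

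Lung-Ctr against Ctr likewise gave no call by edgeR (0% of genes, with 717 at an unadjusted p under 0.05 and 42 called by DESeq2, none among the 9), and the ranges overlapped for every regulator. The log2 fold changes ran from -0.36 for Elf3 to 0.52 for Esrp2 (95% interval -0.34 to 1.38). Grhl1 spread the most within Lung-Ctr, at 39.5 and 15.5 CPM, while Ehf (206 and 202 CPM) and Grhl3 differed by at most 1.03-fold between the 2 libraries. Intervals of this width do not show equal levels.

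**Figure D2:**
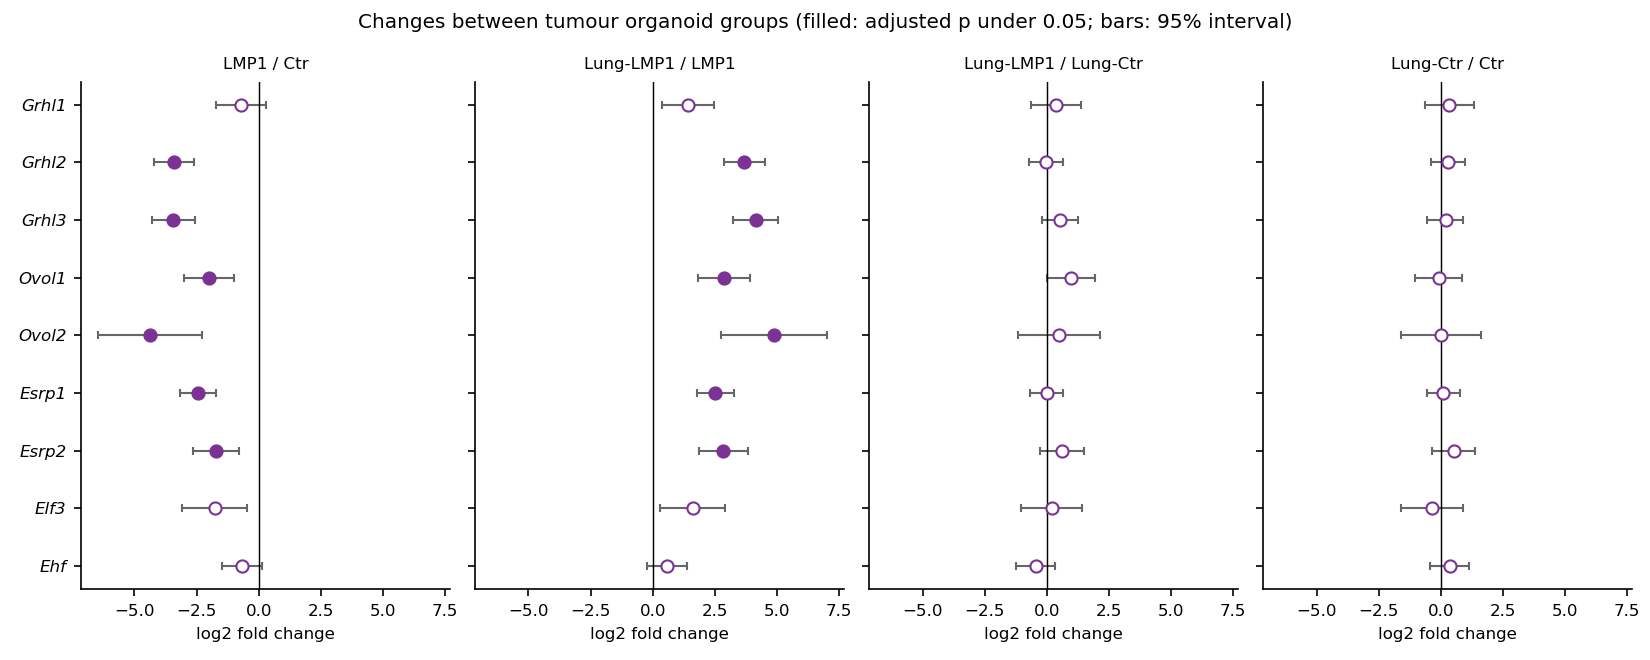
Log2 fold change of each regulator in LMP1 over Ctr, Lung-LMP1 over LMP1, Lung-LMP1 over Lung-Ctr and Lung-Ctr over Ctr, with filled points for an adjusted p under 0.05 by edgeR and bars for the 95% interval. Points of the first panel lie left of 0 and those of the Lung-LMP1 over LMP1 panel lie right of 0, with 6 filled in each, and no point is filled in the other panels.

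The transcription factors that drive the mesenchymal state, which GRHL2 and OVOL proteins oppose, were measured in the same libraries. Zeb1 stood at 36.3 and 24.0 CPM in LMP1, against 46.2 CPM in Ctr replicate 2 and 0.294 and 0.348 CPM in Ctr replicates 1 and 3. Zeb2 was at 75.6 and 61.5 CPM in LMP1 against 15.1 CPM in Ctr replicate 2 and at most 0.139 CPM in the other Ctr libraries. Twist1 showed the same split, with 13.2 and 8.59 CPM in LMP1 and 18.4 CPM in Ctr replicate 2, against at most 0.278 CPM in Ctr replicates 1 and 3. In the Lung-LMP1 and Lung-Ctr libraries Zeb1 reached at most 1.04 CPM, Zeb2 0.203 CPM and Twist1 0.332 CPM, which are 15, 3 and 5 counts. Ctr replicate 2 thus carried Zeb1 at the level of the LMP1 libraries. It had the lowest Ctr levels of Grhl2, Grhl3, Ovol1, Ovol2 and Esrp1, although its Grhl2 (62.9 CPM) was still above LMP1. Its Grhl1 was the highest of Ctr (29.6 CPM, against 21.3 and 16.6 CPM). Its Esrp2 (30 CPM), Elf3 (143 CPM) and Ehf (122 CPM) lay between those of the other Ctr libraries. This library also held 109.8 CPM of fibroblast markers, and their part in these levels was not tested.

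Across all genes 7.36% were called higher in LMP1 than in Ctr. Of the 6 factors, Snai1 rose in LMP1 (23.4 and 24.6 CPM, against 0.441, 3.89 and 0.139 CPM in Ctr; log2 fold change 3.99, adjusted p = 0.0475, edgeR). Snai2, a factor also expressed in basal cells of stratified epithelia, fell (1.05 and 0.947 CPM in LMP1, against 27.5, 9.51 and 67.0 CPM in Ctr; log2 fold change -5.14, adjusted p = 0.0415, edgeR). Zeb1, Zeb2, Twist1 and Twist2 were not called with all libraries. Without Ctr replicate 2, 4 of the 6 factors were called higher and 1 lower. In Lung-LMP1 against LMP1, Snai1 (0.397 ± 0.0867 CPM in Lung-LMP1 against 24 ± 0.812 CPM in LMP1, SD, n = 3 and 2) and Zeb2 (0.109 ± 0.102 against 68.5 ± 9.93 CPM) fell, with adjusted p of 0.026 and 0.0293 by edgeR. Snai2 (30.9 ± 7.55 against 0.999 ± 0.0738 CPM) and Twist2 (33.7 ± 13.2 against 8.74 ± 1.73 CPM) were higher in Lung-LMP1. Their log2 fold changes were 5.07 and 2.09, and neither was called (adjusted p = 0.0567 and 0.0708, edgeR). Zeb1 (-6.08) and Twist1 (-6.37) were lower and not called either (adjusted p = 0.109 and 0.0773, edgeR). Without LMP1 replicate 1, and likewise without LMP1 replicate 2, none of the 6 was called in either comparison.

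**Figure D3:**
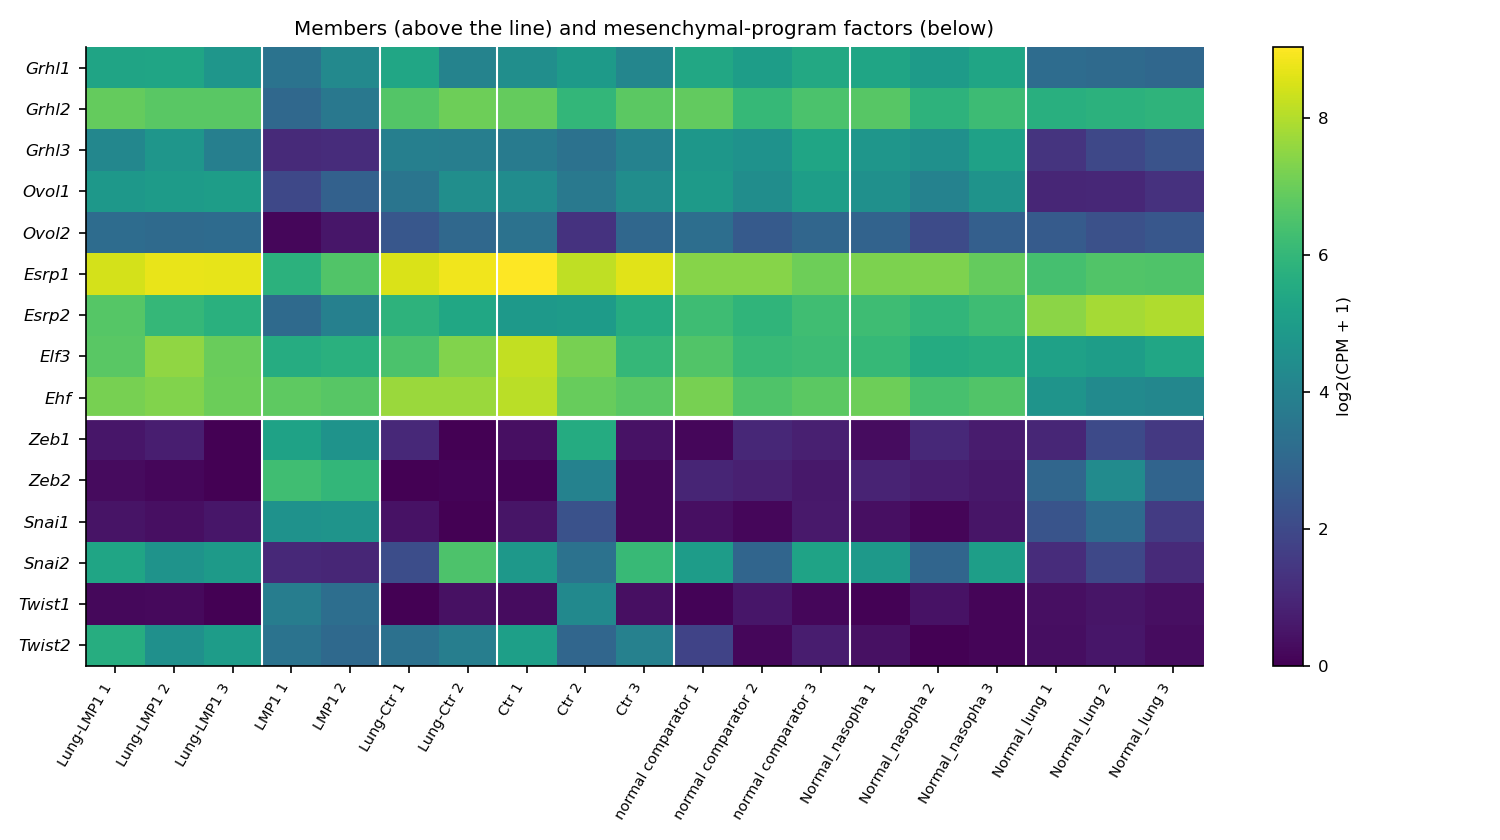
Heat map of log2(CPM + 1) for the 9 regulators (above the white line) and Zeb1, Zeb2, Snai1, Snai2, Twist1 and Twist2 (below it), with 1 column per library. Zeb1, Zeb2, Snai1 and Twist1 are brighter in both LMP1 libraries and in Ctr replicate 2 than in the other tumour libraries, and Grhl2, Grhl3, Ovol1 and Ovol2 are darkest of the tumour libraries in LMP1.

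Genes known as GRHL targets or partners at epithelial junctions and surfaces moved in the direction of Grhl2 in comparisons with the LMP1 libraries. Of 24 such genes, 15 fell and none rose in LMP1 against Ctr, with a median log2 fold change of -1.77 against -0.01 for all genes. Among all genes tested, 9.06% were called lower there. Ap1m2, the epithelial adaptor subunit of basolateral sorting, was at 3.98 ± 1.55 CPM in LMP1 against 92.8 ± 19.6 CPM in Ctr (SD, n = 2 and 3; log2 fold change -4.57, adjusted p = 0.000704, edgeR). Rab25, a small GTPase of apical recycling, was at 12.6 ± 4.06 CPM against 127 ± 31.2 CPM, and the tight-junction gene Cldn4 at 26 ± 10.1 CPM against 312 ± 114 CPM, both called. In Lung-LMP1 against LMP1, 17 of the 24 rose and none fell (median 1.96), and in the interaction 5 were called higher. The shares of all genes called higher were 6.17% and 0.810%, and these comparisons rest on the same 2 LMP1 libraries. Against the normal comparator Grhl2 was not called in Ctr or Lung-LMP1 (log2 fold changes 0.02 and 0.32). Of the 24 genes, 8 were lower and 1 higher in Ctr there, beside 19.0% and 16.1% of all genes. In Lung-LMP1 4 were lower and none higher, beside 17.4% and 14.6%. In Lung-Ctr 2 were lower and none higher, beside 14.2% and 13.2%. The count in LMP1 against Ctr was 14 without Ctr replicate 2, 3 without LMP1 replicate 1 and 6 without LMP1 replicate 2.

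Of 15 epidermal differentiation genes that could be tested, 7 fell in LMP1 against Ctr, and 7 rose in Lung-LMP1 against LMP1, beside 9.06% of all genes called lower in the one and 6.17% called higher in the other. Without LMP1 replicate 1 none was called in either comparison by edgeR, and without LMP1 replicate 2 the counts were 1 and 3. The genes that fell included the desmosomal cadherin Dsc2 (12.7 ± 5.06 CPM in LMP1 against 122 ± 48.5 CPM in Ctr; log2 fold change -3.29, adjusted p = 0.00477, edgeR), the cornified-envelope component Evpl (7.65 ± 1.9 against 41.8 ± 9.89 CPM; -2.47, adjusted p = 0.00914, edgeR) and the crosslinking enzyme Tgm1 (11 ± 1.16 against 67.4 ± 42.7 CPM; -2.65, adjusted p = 0.0184, edgeR). Among regulators of stratified epithelia 5 of 16 fell and 1 rose, and without LMP1 replicate 1 or 2 the number that fell was 0 or 1. Trp63, the master factor of basal cells, was at 2.28 ± 0.452 CPM in LMP1 against 184 ± 140.2 CPM in Ctr. The factor that rose was Cebpb (227 ± 13.9 CPM in LMP1 against 55.1 ± 2.71 CPM in Ctr). For this list and the next, 7.36% of all genes were called higher in LMP1 against Ctr with all libraries. Of 17 mesenchymal genes tested, 5 rose in LMP1 against Ctr with all libraries, 11 without Ctr replicate 2 and 1 without either LMP1 library. Lgals1, a galectin, was among the 5 (349.9 ± 24.4 CPM in LMP1 against 25.6 ± 13.5 CPM in Ctr; adjusted p = 0.00184, edgeR).

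Of 5 relatives of these families that could be tested, 1 fell and none rose in LMP1 against Ctr, with a median log2 fold change of -1.87. The grainyhead-related genes Tfcp2 and Ubp1 were not called in LMP1 against Ctr (log2 fold changes 0.50 and 0.14, adjusted p = 0.157 and 0.613, edgeR), while Tfcp2l1 was at 19 ± 0.0278 CPM in LMP1 against 68 ± 34.5 CPM in Ctr and was called lower (-1.87, adjusted p = 0.0425, edgeR). Ovol3 did not exceed 3 counts in any tumour library, and the epithelial ETS genes Elf5 and Spdef were at most 2.03 and 7.77 CPM there and were not called (-2.52 and -2.53, adjusted p = 0.221 and 0.367, edgeR). The counts in the next lists stand beside 7.36% of all genes called higher and 9.06% called lower in LMP1 against Ctr, and those of the splicing lists lie near these shares. Of 15 other ETS genes tested, 3 rose and 1 fell. Of 14 splicing regulators other than Esrp, 1 fell, Mbnl2 (207 ± 36.3 CPM in LMP1 against 515 ± 133 CPM in Ctr), and none rose. Of 10 genes whose transcripts ESRP proteins are known to splice, Slk fell and Scrib rose, with a median of 0.38. These are gene totals, and exon choice was not measured here.

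The makeup of the Grhl and Ovol families differed between LMP1 and Ctr in these libraries. Per kb of longest transcript, Grhl2 made up 31.2% and 29% of the summed Grhl level in LMP1 against 69.4%, 51.4% and 68.2% in Ctr, and Grhl1 made up 60.3% and 65.5% in LMP1 against at most 34.5% in Ctr. The summed Grhl level was 4.66 and 7.98 CPM per kb in LMP1 against 34.8, 24.7 and 32 CPM per kb in Ctr. The share of Ovol1 in the Ovol sum was 93.1% and 86.9% in LMP1 against 52.1%, 79.8% and 60.6% in Ctr. None of these ranges overlapped, and the Ovol1 shares in LMP1 rest on 2 and 7 counts of Ovol2. An exact two-sided permutation test gave p = 0.2 for the Grhl2 share and for the Ovol1 share, the smallest that 2 libraries against 3 can give.

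Esrp1 exceeded Esrp2 in every tumour and nasopharyngeal library and was below it in every Normal_lung library. Its share of the Esrp sum was 90.8 ± 3.04% in Ctr and 83.4 ± 6.3% in Lung-LMP1 (SD, n = 3 each), against 66.8 ± 5.51% in the normal comparator. Each range was separate from that of the comparator (exact two-sided permutation p = 0.1 for each, the smallest possible for 3 against 3). In LMP1 the share was 86.8% and 86%, against 94.3%, 89.6% and 88.6% in Ctr. The summed Esrp level was 16.5 and 28.8 CPM per kb in LMP1 against 144, 81.9 and 117 CPM per kb in Ctr. Reads where Esrp2 overlaps opposite-strand genes were not told apart in any of these values.

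**Figure D4:**
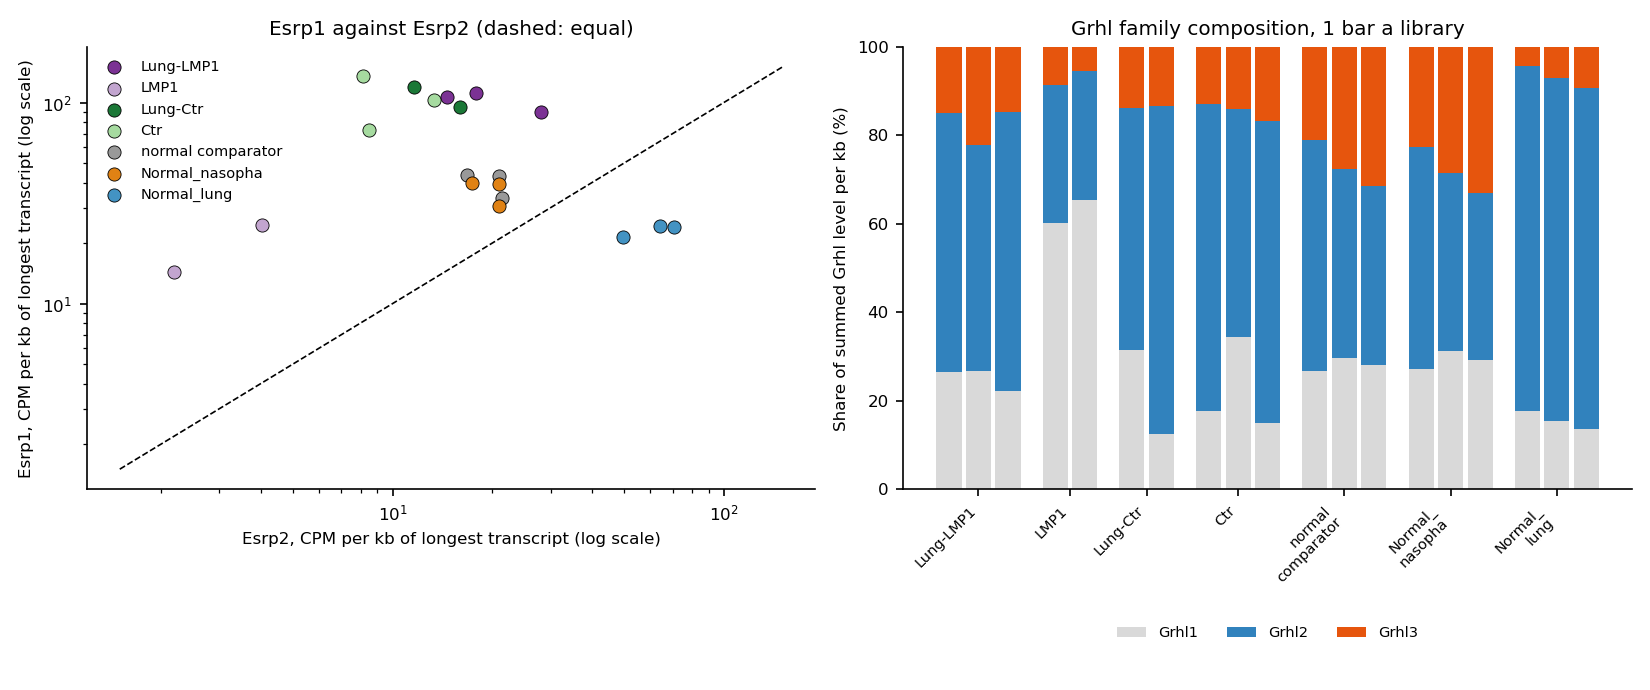
Left, Esrp1 against Esrp2 in each library as CPM per kb of longest transcript on logarithmic axes, with a dashed line of equal levels; the 3 Normal_lung libraries lie below the line and the 16 other points above it. Right, the share of Grhl1, Grhl2 and Grhl3 in the summed Grhl level per kb, 1 bar per library, where Grhl1 takes over 60% in the 2 LMP1 libraries.

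Over the 10 tumour libraries the members differed in how widely they varied. The SD of TMM-scaled log2 CPM was 1.79 for Ovol2, 1.48 for Grhl3 and 1.47 for Grhl2, between 1.05 and 1.09 for Esrp1, Esrp2 and Ovol1, and 0.82, 0.67 and 0.46 for Elf3, Grhl1 and Ehf. LMP1 replicate 1 was the lowest library for every regulator except Ehf, for which LMP1 replicate 2 was lowest. Genes whose centred profile lay among the 5 closest to that of Grhl2, among 9498 genes averaging 3 or more on the log2 CPM scale, included Rab25 (root-mean-square difference 0.121), Pkp3 (0.232), Tmem40 (0.249) and Sorl1 (0.254). For Grhl3 they included Il1rl2 (0.308), Rab25 (0.320), Pkp3 (0.330) and Galnt3 (0.362), and for Esrp1 they were Arap2 (0.136), Eps8l2 (0.180), Map7 (0.180), Myh14 (0.182) and Cnn2 (0.184). The Grhl2 profile itself lay at 0.344 from Grhl3 and 0.452 from Esrp1, against 1.172 from Grhl1 and 1.230 from Ehf. These distances describe 10 libraries and include the low LMP1 levels.

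Against the normal comparator, Esrp1 was higher in Lung-LMP1, Lung-Ctr and Ctr and lower in LMP1, and Grhl3 was lower in Lung-Ctr, Ctr and LMP1. Esrp1 was at 349, 429.6 and 412 CPM in Lung-LMP1, 368 and 459 CPM in Lung-Ctr and 524, 284 and 399 CPM in Ctr, against 166, 168 and 130.0 CPM in the comparator, with no overlap. Its log2 fold changes over the comparator were 1.40 ± 0.26 in Lung-LMP1 (adjusted p = 0.00403), 1.39 ± 0.28 in Lung-Ctr (adjusted p = 0.00573) and 1.30 ± 0.26 in Ctr (adjusted p = 0.00376) by edgeR. Among all genes, 14.6% were called higher in Lung-LMP1, 13.2% in Lung-Ctr and 16.1% in Ctr, and the 3 comparisons share the comparator columns. Esrp1 was the 1 regulator called higher in each, and no other was called in Lung-LMP1, where 17.4% of genes were called lower.

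Grhl3 was at 13.9 and 13.4 CPM in Lung-Ctr and 12.6, 9.65 and 15.1 CPM in Ctr against 26.5, 23.5 and 39 CPM in the comparator. It fell by 1.15 ± 0.35 in Lung-Ctr (adjusted p = 0.031; 14.2% of genes called lower) and by 1.33 ± 0.30 in Ctr (adjusted p = 0.00711; 19.0% called lower) by edgeR. In Lung-LMP1 its difference was -0.62 (95% interval -1.27 to 0.04), with overlapping ranges. Esrp2 was lower in Ctr than in the comparator (28.9, 30 and 46.9 CPM in Ctr against 74.3, 59.5 and 75.7 CPM; -1.06 ± 0.33, adjusted p = 0.0272, edgeR). The call of Esrp2 was lost without Ctr replicate 1 or 2 or comparator replicate 3, and that of Grhl3 in Lung-Ctr without either Lung-Ctr library or comparator replicate 3, and both were lost after the length and GC correction. Neither Esrp1 nor Grhl3 was called in Lung-Ctr when only the Lung-Ctr and comparator libraries were fitted.

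LMP1 organoids were lower than the comparator in 7 of the 9 regulators, where 14.5% of genes were called lower and 13.7% higher. The log2 fold changes of the 7 ran from -1.09 for Esrp1 to -4.72 for Grhl3, and included -1.53 for Grhl1 (9.74 and 18.1 CPM in LMP1 against 42, 31.4 and 43.2 CPM; adjusted p = 0.0253, edgeR). Elf3 (-0.71, 95% interval -1.82 to 0.40) and Ehf (-0.16, -0.92 to 0.60) were not called. Without LMP1 replicate 1 the count was 4, namely Grhl2, Grhl3, Ovol1 and Esrp2. Grhl1 was also not called without LMP1 replicate 2 or comparator replicate 3, nor Esrp1 when only these 5 libraries were fitted.

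Normal nasopharyngeal and normal lung organoids both contained all 9 regulators, and 5 differed in level. Grhl1, Grhl3, Ovol1 and Ehf were higher in Normal_nasopha, where 15.4% of 15886 genes were called higher, and Esrp2 was lower, where 15.6% were called lower. Ovol1 showed the widest difference, at 22.1, 15.2 and 24.2 CPM in Normal_nasopha against 0.943, 0.997 and 1.46 CPM in Normal_lung (log2 fold change 4.02 ± 0.35, adjusted p = 0.000493, edgeR). Grhl3 was at 25.8, 22.1 and 35.2 CPM in Normal_nasopha against 1.59, 2.85 and 3.93 CPM in Normal_lung (3.16 ± 0.40, adjusted p = 0.0018, edgeR). The groups were separate for both genes by more than 5-fold at their nearest libraries.

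Grhl1 was at 38.6, 30.1 and 38.8 CPM in Normal_nasopha against 8.14, 7.74 and 7.19 CPM in Normal_lung (2.07 ± 0.21, adjusted p = 0.000802, edgeR). Ehf was at 132, 82.9 and 95.9 CPM in Normal_nasopha against 24.5, 18.9 and 17.3 CPM in Normal_lung (2.20 ± 0.25, adjusted p = 0.00124, edgeR). Esrp2 went the other way, with 73.9, 61 and 73.8 CPM in Normal_nasopha against 176, 227 and 250.0 CPM in Normal_lung (-1.79 ± 0.20, adjusted p = 0.00107, edgeR). The opposite-strand genes Nfatc3 and 1810019D21Rik, which overlap Esrp2, had 8592 and 4962 counts over the 6 normal libraries. Reads of the overlapping stretches cannot be told apart, and their part in the Esrp2 levels was not tested. Grhl2 (101, 55.7 and 71.8 CPM in Normal_nasopha, 51.2, 55.6 and 57.6 CPM in Normal_lung) and Ovol2 (6.43, 3.22 and 5.72 CPM, and 4.97, 3.7 and 4.47 CPM) overlapped between the tissues. Their log2 fold changes were 0.32 (95% interval -0.23 to 0.87) and 0.07 (-0.82 to 0.95). Esrp1 (152, 154 and 118 CPM in Normal_nasopha, 82.7, 94.4 and 93 CPM in Normal_lung) and Elf3 (65.6, 46.7 and 49.3 CPM, and 34.6, 31.9 and 40.1 CPM) did not overlap but were not called, with adjusted p of 0.0698 and 0.144 by edgeR.

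The member with the larger share per kb differed between the tissues for Esrp and Ovol, while Grhl2 and Elf3 held the largest share of their families in every library of both. Esrp1 was 64.9 ± 5.22% of the Esrp sum in Normal_nasopha against 27.7 ± 2.35% in Normal_lung, and Ovol1 was 68 ± 3.57% of the Ovol sum against 11.9 ± 2.77% (SD, n = 3 each). The overlap of Esrp2 with opposite-strand genes applies to the Esrp share as well. Grhl2 was 42.8 ± 6.39% of the Grhl sum in Normal_nasopha against 77.5 ± 0.503% in Normal_lung. The exact two-sided permutation test gave p = 0.1 for each share, the smallest that 3 against 3 allows. Levels of cell type markers differed beside these values. The 6 leukocyte markers summed to 58.9 to 273 CPM in Normal_nasopha against 1671 to 2909 CPM in Normal_lung, mostly Lyz2, which alveolar type II cells also express. The 8 fibroblast markers summed to 4.23 to 13.4 CPM against 80.9 to 469.9 CPM. The 7 epithelial markers summed to 5843 to 15124 CPM in Normal_nasopha against 1619 to 1686 CPM in Normal_lung. The part of cell makeup in the results was not tested. The 5 calls were kept with each library left out in turn.

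Some genes that these regulators act with also differed between the tissues. Among all genes, 15.4% were called higher and 15.6% lower in Normal_nasopha. Of 20 epidermal differentiation genes tested, 9 were higher in Normal_nasopha and none lower, with a median log2 fold change of 3.71 against 0.13 over all genes. Dsc2, for example, was at 239 ± 108 CPM in Normal_nasopha against 16.8 ± 5.02 CPM in Normal_lung (SD, n = 3 each; log2 fold change 3.67, adjusted p = 0.0013, edgeR). Of the 24 junction and surface genes, 7 were higher and 5 lower, with a median of 0.27 against 0.13 over all genes. Pkp3, a desmosomal plaque protein, was higher (175 ± 39 against 38.8 ± 3.92 CPM; 2.03, adjusted p = 0.00118, edgeR), while the tight-junction gene Cldn3 was lower (45.1 ± 20.3 against 427 ± 83.2 CPM; -3.38, adjusted p = 0.00121, edgeR). Among the opposing factors, 4 could be tested. Snai2 was higher in Normal_nasopha (22.4 ± 13.8 against 1.75 ± 0.993 CPM), Snai1 (0.273 ± 0.173 against 4.68 ± 3.01 CPM) and Zeb2 (0.667 ± 0.194 against 11 ± 7.4 CPM) were lower, and Zeb1 was not called (adjusted p = 0.0921, edgeR).

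**Figure D5:**
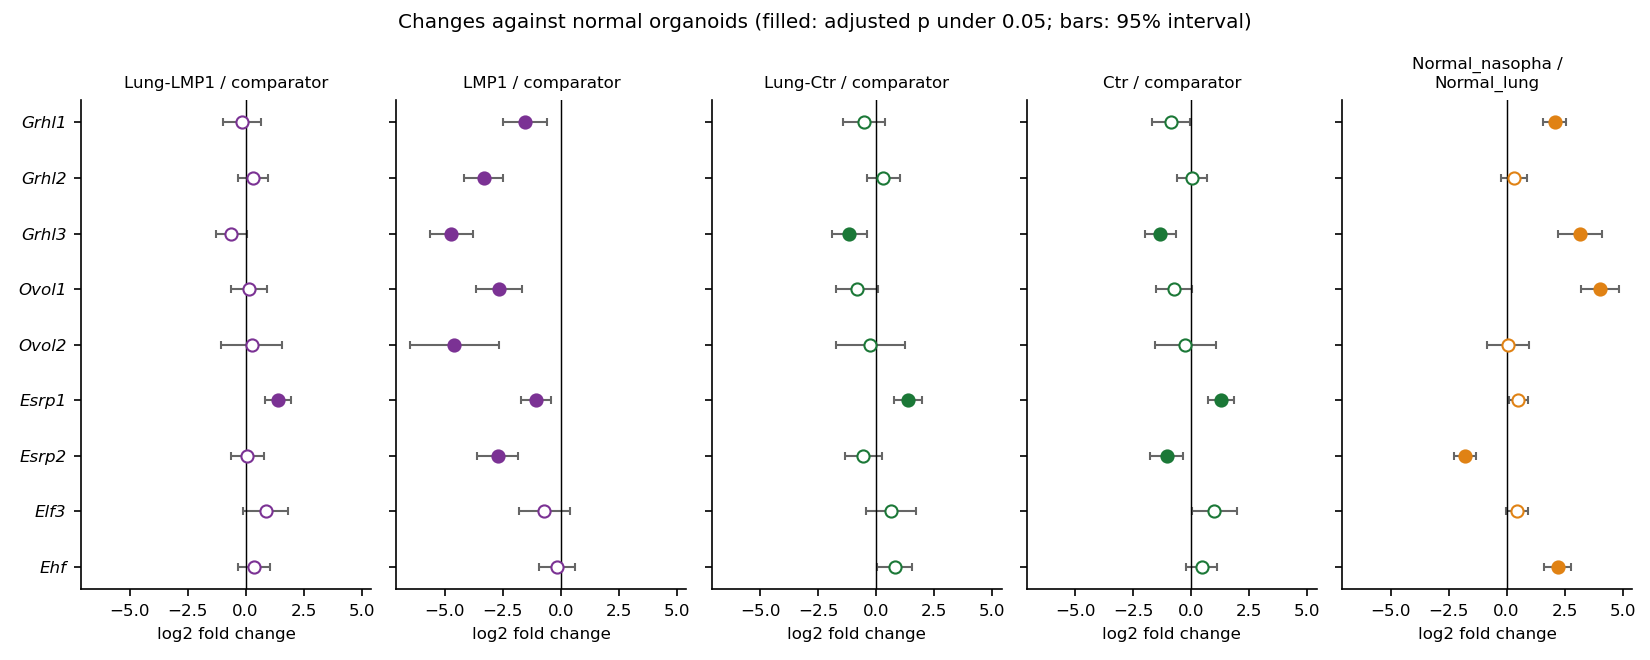
Log2 fold change of each regulator in Lung-LMP1, LMP1, Lung-Ctr and Ctr over the normal comparator and in Normal_nasopha over Normal_lung, with filled points for an adjusted p under 0.05 by edgeR and bars for the 95% interval. Esrp1 is filled to the right of 0 in Lung-LMP1, Lung-Ctr and Ctr, Grhl3 to the left in Lung-Ctr and Ctr, Esrp2 to the left in Ctr, 7 points to the left in LMP1, and 4 to the right and 1 to the left in the normal tissues.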

How the data were processed

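The tables that the authors deposited hold read counts per gene (unnormalized, per the file headers), log2 fold changes and adjusted p-values, and the last 2 are quoted as the authors' deposited table. Per the submitters' processing notes, STAR, mm10, DESeq2 and DESeq were used; counting tool and strand setting: not given in the sources used here. A further 32 deposited per-sample score columns headed TPM were not used. Of the tumour libraries' columns, 13 repeats were identical, and 27 symbols had become dates, none of them a member's.

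The main test was that of edgeR 4.0.16, run in R 4.3.3 (filterByExpr by group, TMM, robust quasi-likelihood F-test, Benjamini-Hochberg over all genes tested, adjusted p under 0.05). The 10 tumour libraries were fitted together, the 13 with the comparator together, and the 6 normal libraries alone, since their table uses other identifiers. SE was derived from the F statistic. CPM in the text are by library total; CPM per kb use the longest GENCODE transcript on GRCm38. Total counts were 12535166 to 21737184 per library, and floors and intervals cover counting error only. The procedure was tested on simulated data for LMP1 against Ctr, with 200 changed genes. It recovered 6% of 2-fold and 55% of 4-fold changes, and 3.17% of its calls were false. A regulator that was not called may therefore still differ.

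The 9 regulators are named throughout, up to 4 genes of smallest adjusted p per list, and all family relatives and opposing factors. Some genes that this rule picks are not reported here. Members and lists were chosen with earlier results of these data known, so they give no independent support. Alternatives were DESeq2 1.42.0, RLE size factors, no filter, a length and GC correction (mgcv 1.9.3), the replicate number as a block, each library left out, only the groups compared, and total count scaling, the last chosen after seeing the data.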

Additional observations from a re-analysis of the deposited data

Results flagged for a closer look

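The interaction of LMP1 genotype and Lung prefix passed the threshold for 3 of the 9 regulators in the fit of the 10 tumour libraries. The log2 fold change of Lung-LMP1 over Lung-Ctr minus that of LMP1 over Ctr was 3.38 for Grhl2 (-0.02 and -3.40), 3.96 for Grhl3 (0.52 and -3.44) and 2.43 for Esrp1 (-0.01 and -2.43). In each gene both LMP1 libraries lay below every other tumour library. None of the 3 calls held with the replicate block or without Lung-LMP1 replicate 1. If the descriptions hold, genotype and kind of tumour (primary or metastasis) cannot be told apart.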

How the results depend on the processing

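Of the 33 calls among the 9 regulators, 33 were kept with DESeq2, RLE size factors, total count scaling and no low-count filter, 30 with the length and GC correction and 24 with the replicate block. The labels do not say whether libraries of the same replicate number belong together. Deviations from group means correlated between -0.348 and 0.174 in same-numbered libraries, and 2 of 13 such pairs exceeded 0.1. In groups of 2 libraries these deviations mirror each other, so the correlations cannot decide whether the numbers pair the libraries. The block on the replicate number gave 3 regulators in LMP1 against Ctr, 0 in the interaction and 1 in Lung-Ctr against the comparator, and 483, 360, 2 and 2517 genes in LMP1 against Ctr, Lung-LMP1 against LMP1, the interaction and LMP1 against the comparator, against 2210, 1361, 120 and 3980 without it.

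Genes called by DESeq2 were 3484 in LMP1 against Ctr, 791 in Lung-LMP1 against Lung-Ctr, 2488 in Lung-LMP1 against LMP1, 42 in Lung-Ctr against Ctr and 906 in the interaction, with 6 regulators in the last. The length and GC correction gave 1090 genes in LMP1 against Ctr and 2564 in Lung-Ctr against the comparator (3861 as reported), with 1 regulator in Lung-Ctr against the comparator. Fitting only the groups compared gave 2682 genes in Lung-LMP1 against LMP1, and against the comparator 2917 in Ctr (4944 as reported), 2288 in LMP1, 168 in Lung-Ctr with 0 regulators, and 2937 in Lung-LMP1 (4516 as reported). The interaction uses all 4 tumour groups, so that alternative does not exist for it. Total count scaling turned the Lung-LMP1 against LMP1 split of 830 higher and 531 lower into 661 and 739 and moved the median of all genes there to -0.127, against 0.006. In Normal_nasopha against Normal_lung that median was 0.283, against 0.133. The causes were not tested.

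With each library left out in turn, the regulators called numbered 0 to 6 in LMP1 against Ctr, 2 to 6 in Lung-LMP1 against LMP1, 0 to 5 in the interaction, 4 to 7 in LMP1 against the comparator and 1 to 2 in Lung-Ctr against it. Genes called numbered 25 to 1920 in LMP1 against Ctr, 33 to 949 in Lung-LMP1 against LMP1, 0 to 33 in Lung-LMP1 against Lung-Ctr, 0 to 31 in Lung-Ctr against Ctr and 4 to 331 in the interaction. Against the comparator they numbered 736 to 4836 in LMP1, 2018 to 4565 in Lung-Ctr and 2354 to 5346 in Lung-LMP1, and in Normal_nasopha against Normal_lung 2657 to 5421 (4935 as reported).

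No called regulator changed direction under any alternative. Among the values not called, leaving out 1 library gave log2 ranges that crossed 0. In Lung-LMP1 against Lung-Ctr they were -0.16 to 1.17 for Grhl1, -0.24 to 0.22 for Grhl2, -0.17 to 0.16 for Esrp1 and -0.18 to 0.69 for Elf3. In Lung-Ctr against Ctr they were -0.46 to 0.87 for Grhl1, -0.67 to 0.34 for Ovol1, -0.45 to 0.47 for Ovol2, -0.11 to 0.31 for Esrp1 and -0.85 to 0.33 for Elf3. The interaction of Ehf ran from -0.31 to 0.44. In Ctr against the comparator the ranges were -0.17 to 0.26 for Grhl2, -0.72 to 0.20 for Ovol2 and -0.08 to 0.67 for Ehf, and in Lung-Ctr against it -1.36 to 0.01 for Grhl1 and -0.63 to 0.05 for Ovol2. In Lung-LMP1 against it they were -0.31 to 0.01 for Grhl1, -0.04 to 0.29 for Ovol1 and -0.28 to 0.27 for Esrp2, and in Normal_nasopha against Normal_lung -0.14 to 0.30 for Ovol2.

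The length and GC correction gave 0.03 for Grhl2 and 0.02 for Esrp1 in Lung-LMP1 against Lung-Ctr, and against the comparator -0.04 for Grhl2, 0.29 for Ovol2 and -0.14 for Ehf in Ctr, 0.33 for Ovol2 in Lung-Ctr and -0.03 for Ehf in Lung-LMP1. Without the filter Esrp1 was 0.00 in Lung-LMP1 against Lung-Ctr, and with total count scaling Ovol2 was -0.04 in Lung-Ctr against Ctr. Depth limits Ovol2 in LMP1, which had 2 and 7 counts.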
